A study of Mus musculus with 22 samples.

Results

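The genes described here are 33 members of the endoplasmic reticulum (ER) folding machinery and the unfolded protein response, read out in mouse liver cells at 4 times of day under a control diet and a diet that induces steatohepatitis. They were taken by symbol from the count table, 33 of its 55367 genes, and all 33 passed the filter on low counts that left 22409 genes for testing. The members fall into 12 chaperones and lectins, 4 protein disulfide isomerases, 7 genes of protein translocation and ER-associated degradation, 6 stress sensors and transcription factors, and 4 targets of the integrated stress response. No measured value entered the choice of the members by name, although earlier results of these data were known when they were chosen.

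The series holds 22 RNA-seq libraries of mouse liver cells labelled HSC, which in liver work usually stands for hepatic stellate cells. Control mice ate chow, and diet mice ate CDA-HFD, a choline-deficient high-fat diet, from 8 weeks of age. The labels give 12 weeks of feeding and an age of 20 weeks for all animals, but the treatment field of the diet libraries names 6 months, and which of them holds is unknown. Mice were killed at zeitgeber time (ZT) 0, when the lights went on, or at ZT6, ZT12, when they went off, or ZT18. Every diet group holds 3 libraries, as do control ZT0 and control ZT18, whereas control ZT6 and control ZT12 hold 2 each. Not given in the sources used here were the strain, the sex and how the cells were isolated. Since nothing in the labels ties libraries to separate animals, the tests see only how far libraries spread, and that spread may be technical.

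Libraries held 19754805 to 41665623 counts, and the first principal component (40.2% of the variance) parted the diets. Replicate 2 of control ZT0 and replicate 1 of control ZT18 stood apart from their groups. They were not the only libraries to do so on the second component. The 2 libraries of control ZT6 stood there at 9.30 and 68.2, and those of diet ZT0 at 43.5, -46.0 and -21.9. The later setting without the 2 control libraries that stand apart left these others in. The label was checked against marker genes. Summed over 12 stellate and fibroblast markers, levels were 178 to 930 CPM (counts scaled to library size) in control and 141 to 514 CPM under diet. The sum over 12 endothelial markers was 19078 to 37098 CPM in control and 1218 to 2864 CPM under diet. The control libraries thus held far more endothelial than stellate marker RNA, and the endothelial sum fell below every control library in all 12 diet libraries. In such bulk samples, fewer cells of a type and less RNA per cell cannot be told apart, and the part of this shift in the results below was not tested.

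Proteins that enter the secretory pathway are folded in the ER lumen by chaperones of the HSP70 and HSP90 families, by lectins that hold glycoproteins and by isomerases that form disulfide bonds. When unfolded protein builds up, the sensors IRE1, PERK and ATF6 raise the transcription of these helpers and of the degradation machinery, and PERK slows translation through eIF2, which favours translation of ATF4. In the liver, the response is known for its part in secretion, lipid handling and diet-induced steatohepatitis.

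ATF6 and XBP1 are known to act at the ER stress response element, here searched on both strands as CCAAT and CCACG with any 9 bases between them, in the 250 bases before each RefSeq start site (GRCm38.p6). Of the 33 members 28 had a promoter in that table, and 9 of these 28 (32.1%) held the element, against 0.113% of all 32851 promoters. The members were picked as genes of the response that this element is known for, so the higher share is no independent result. The matching windows are shown because 7 of the 9 genes are chaperones or isomerases with their highest control level at ZT6, the pattern described next. That peak does not set genes with the element apart. Syvn1 and Derl3 also had their highest control mean at ZT6, as did Dnajb9, Dnajb11, Sdf2l1, P4hb, Pdia3 and Pdia4, whose windows held no match. Each is read from CCAAT to CCACG, which stand in capitals, with the bases between them and 5 bases on each side in lower case; Hsp90b1 held 2. Between the matches and the start site lie 25 to 193 bases.
Hspa5, chr2:34772020-34772048: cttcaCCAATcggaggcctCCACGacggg
Hsp90b1, chr10:86705633-86705661: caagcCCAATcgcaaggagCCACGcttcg
Hsp90b1, chr10:86705528-86705556, strand opposite to the gene: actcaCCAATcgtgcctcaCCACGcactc
Calr, chr8:84847070-84847098, strand opposite to the gene: atgggCCAATgagggtcgaCCACGcgttg
Canx, chr11:50325795-50325823: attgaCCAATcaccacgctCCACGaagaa
Dnajc3, chr14:118937822-118937850: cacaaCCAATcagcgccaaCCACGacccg
Creld2, chr15:88819515-88819543, strand opposite to the gene: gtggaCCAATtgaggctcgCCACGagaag
Pdia6, chr12:17266486-17266514: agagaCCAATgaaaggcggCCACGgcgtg
Syvn1, chr19:6046527-6046555: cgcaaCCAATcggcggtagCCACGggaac
Derl3, chr10:75893237-75893265, strand opposite to the gene: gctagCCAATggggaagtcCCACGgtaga
A shorter variant, ATTGG and CCACG with 1 base between them, was found in Herpud1 alone, 1 of the 28, against 0.0304% of all promoters. The window of Herpud1 also ends in CCAAT, 9 bases and CCAC, where its edge cuts a possible longer element. Herpud1 was counted as without that element, and the next base was not searched. The C/EBP-ATF element, a site of ATF4, was searched only as TGATG and AAT with 1 base between them. This form was in none of the 28 and in 0.816% of all promoters. Forms with another last base were not counted. TGATG and AAC with 1 base between them stands in the windows of Asns, Chac1 and Herpud1, so the count does not show that members lack the element. A match describes letters in a window and is no evidence of binding.

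Of the 12 chaperones and lectins, 11 had their highest control mean at ZT6, while under diet all 12 had theirs at ZT18. Expression is given in CPM on TMM-scaled libraries, and a gene is said to have changed where the adjusted p of edgeR's quasi-likelihood test was under 0.05. Hspa5, which encodes BiP, the main HSP70 of the ER, stood in control at 446, 527 and 529 CPM at ZT0, at 1905 and 1539.9 CPM at ZT6, at 379 and 407 CPM at ZT12 and at 1014, 1133 and 1162 CPM at ZT18. Both ZT6 libraries lay above all other 20 libraries, and the ZT18 libraries lay above those of ZT0 and ZT12. Under diet Hspa5 stood at 891, 912 and 1025 CPM at ZT0, 809, 808 and 752 CPM at ZT6, 819, 771 and 777 CPM at ZT12, and 1193, 1223 and 1323 CPM at ZT18. The diet libraries thus kept the high level at ZT18, lay between the control extremes at the other times, and did not overlap control at any of the 4 times. Diet minus control was 0.91 ± 0.10 (log2, SE) at ZT0, -1.13 ± 0.11 at ZT6 and 1.00 ± 0.11 at ZT12 (adjusted p = 4.01e-07, 8.54e-08 and 8.27e-07), and 0.18 ± 0.10 at ZT18 (adjusted p = 0.193). The interaction of diet and time, which asks whether the diet effect differs between the 4 times, had an adjusted p of 5.74e-07.

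Over all members, the interaction was called for 14 of 33, against a background of 0.959% of the 22409 genes. That background of 215 genes itself ran from 76 to 1086 with 1 library left out and from 34 to 2085 under the other settings tried. By role these were 10 of 12 chaperones and lectins, 3 of 4 isomerases, 1 of 7 translocation and degradation genes, 0 of 6 sensors and transcription factors and 0 of 4 integrated stress response targets. Of the sensors 2 and of the stress response targets 2 had an unadjusted p under 0.05 in this test, and DESeq2 called 1 and 0. Over the 33 members 23 had such an unadjusted p. The times differed in control for 20 of 33 members (background 5.74%), among them 11 of 12 chaperones and all 4 isomerases, and under diet for 4 of 33 (background 1.08%), Hspa5, Canx, Sdf2l1 and Ppp1r15a. The interaction counts rest on ZT6, where control has 2 libraries. Without that time 1 member remained called, Hspa5, and without ZT18 there were 8. The count fell to 9 without replicate 2 of control ZT6 or replicate 1 or 2 of diet ZT0, and to 8 without any 1 of the 3 diet ZT6 libraries; Hspa5, Hsp90b1, Calr, Sdf2l1, Manf, Creld2, Pdia3 and Pdia6 stayed called whichever single library was left out. The count of 20 over times in control became 9 without ZT6 and 11 when the 4 control groups were fitted alone. The count of 4 under diet became 0 without ZT18, 8 without replicate 2 of control ZT0, and 1 or 2 when any library was left out other than control ZT0 replicate 1, control ZT18 replicate 1 or 2, diet ZT6 replicate 1 and diet ZT12 replicate 1 or 2. Hspa5 was called in each case with a single library left out.

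Hsp90b1, the HSP90 of the ER lumen (GRP94), stood in control at 485, 424 and 624 CPM at ZT0, 1376 and 1759 CPM at ZT6, 344 and 435 CPM at ZT12 and 698, 718 and 752 CPM at ZT18. Under diet it stood at 397, 409 and 448 CPM at ZT0, 416, 399.6 and 385 CPM at ZT6, 407, 372 and 387 CPM at ZT12 and 546, 548 and 572 CPM at ZT18. Its diet libraries were nearly level over the day, with the ZT18 libraries above the rest. The diet effect was -1.97 ± 0.14 at ZT6 (log2, SE; adjusted p = 1.12e-09) and -0.38 ± 0.12 at ZT18 (adjusted p = 0.0242), and at ZT12 it was 0.00 with a 95% interval of -0.27 to 0.27. The ZT18 call was lost without replicate 2 or 3 of control ZT18 or replicate 1 or 2 of diet ZT18 (adjusted p = 0.0509 to 0.0737), and the interaction had an adjusted p of 0.000106.

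**Figure D1:**
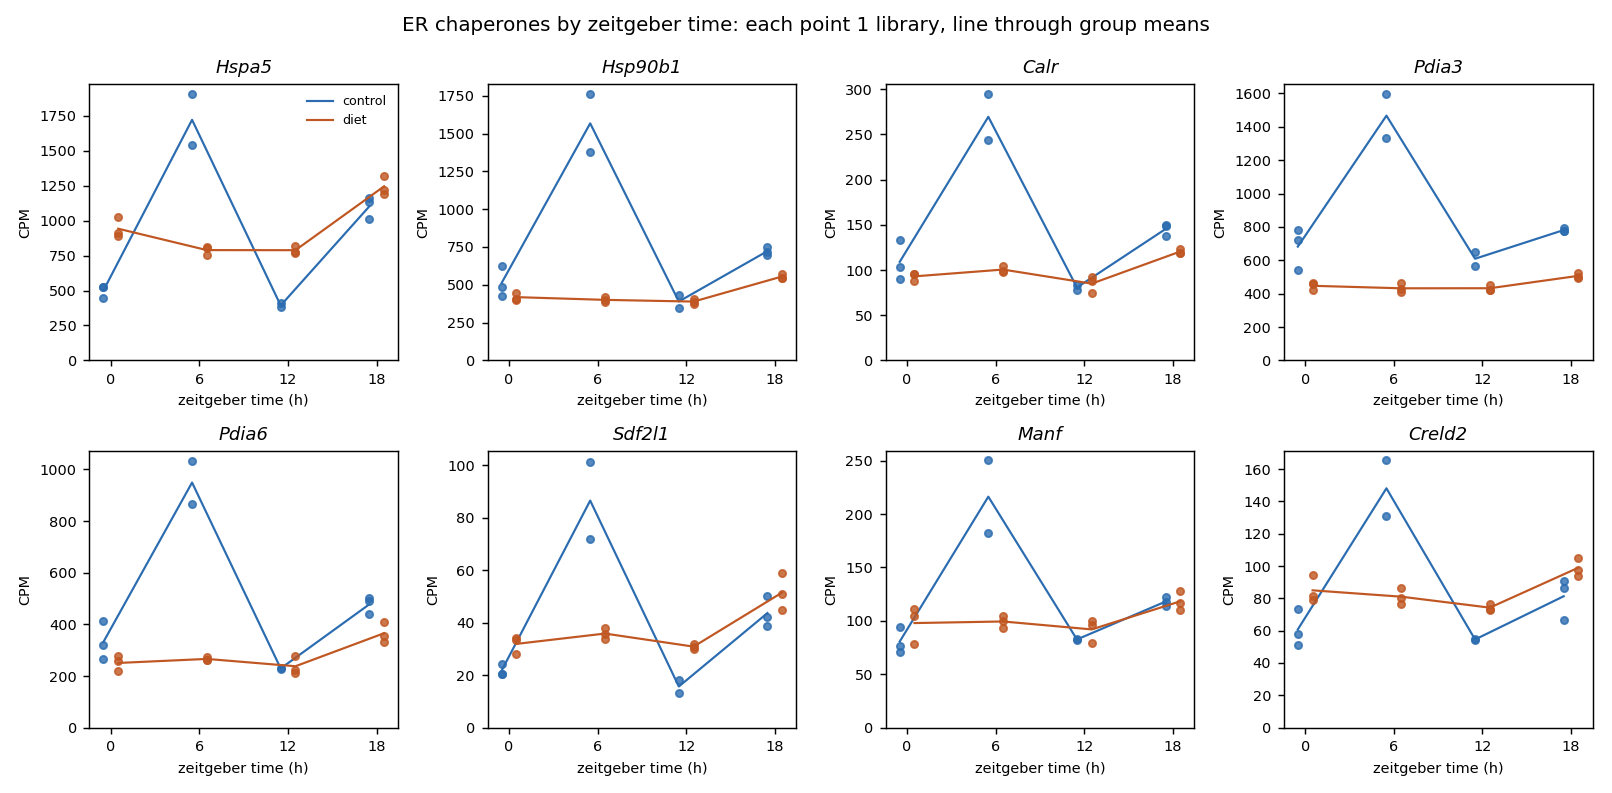
Expression in CPM (vertical axis, from 0) against zeitgeber time in hours for Hspa5, Hsp90b1, Calr, Pdia3, Pdia6, Sdf2l1, Manf and Creld2, with 1 point per library and lines through the group means, control in blue and diet in orange. In each panel the 2 control points at ZT6 lie above every other library, and the diet lines vary less over the day with their highest mean at ZT18.

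Partner proteins of BiP were also highest at ZT6 in control. Sdf2l1, which holds the J-protein DNAJB11 in its BiP cycle, stood in control at 20.4, 20.4 and 24.1 CPM at ZT0, 71.9 and 101 CPM at ZT6, 13.2 and 18.1 CPM at ZT12 and 38.7, 50.2 and 42.0 CPM at ZT18. Under diet its 12 libraries ran from 27.9 to 58.8 CPM with a median of 34.1 CPM. Diet libraries lay above control at ZT0 and ZT12 and below it at ZT6, and at ZT18 the groups overlapped. The diet effect on the log2 scale was 0.56 ± 0.16 (SE) at ZT0, -1.27 ± 0.17 at ZT6 and 0.97 ± 0.18 at ZT12 (adjusted p = 0.00946, 6.28e-06 and 0.000275), and 0.24 ± 0.15 at ZT18 (adjusted p = 0.266).

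Manf, a secreted and ER-resident protein that slows nucleotide exchange on BiP, stood at 250.3 and 182 CPM in the control ZT6 libraries, and the other 8 control libraries lay at 71.1 to 123 CPM. Under diet it ranged from 78.1 to 128 CPM. Creld2, an ER stress-inducible protein with disulfide isomerase activity, stood at 166 and 131 CPM in control ZT6 and ranged from 51.3 to 90.6 CPM in the other control libraries, against 72.8 to 105 CPM under diet. At ZT6 the diet libraries of both genes lay below both control libraries, with a diet effect of -1.12 ± 0.16 for Manf and -0.87 ± 0.15 for Creld2 (log2, SE; adjusted p = 1.09e-05 and 0.000113). Creld2 was higher under diet at ZT0 by 0.48 ± 0.14 (adjusted p = 0.00985) and at ZT12 by 0.44 ± 0.15 (adjusted p = 0.0343), but the first call was lost without replicate 1 of control ZT0 or replicate 3 of diet ZT0 and the second without any 1 of the ZT12 libraries. Manf passed the test at none of these other times.

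Among the J-proteins, which hand clients to BiP, Dnajb9 stood at 178 and 102 CPM in control ZT6 and at 75.4, 82.6 and 82.8 CPM in diet ZT6. It was also high in control at ZT18, at 108, 129 and 129.6 CPM, and in diet at ZT18, at 120.5, 127 and 106 CPM. The diet effect of Dnajb9 was 0.62 ± 0.16 (log2, SE) at ZT0 and -0.80 ± 0.18 at ZT6 (adjusted p = 0.0051 and 0.00131), and the ZT6 call was lost without replicate 1 of control ZT6 (adjusted p = 0.215). Dnajb11 stood at 227 and 256 CPM in control ZT6 and at 113 to 167 CPM in the other control libraries, against 107 to 158 CPM under diet. It fell under diet at ZT6 by 1.02 ± 0.13 (log2, SE; adjusted p = 2.13e-06). Dnajc3, a J-protein of the lumen that also inhibits eIF2 kinases, was lower under diet at every time, by 0.50 to 1.21 on the log2 scale, and its interaction was not called. The ZT0 call was lost without replicate 3 of control ZT0 (adjusted p = 0.0737) and the ZT12 call without replicate 1 of control ZT12 (adjusted p = 0.0547). Its 12 diet libraries ran from 153 to 212 CPM and its 10 control libraries from 177 to 409 CPM.

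The lectin chaperones of the calnexin cycle both fell at ZT6 under diet. Calr, the soluble lectin, stood in control at 103, 89.9 and 134 CPM at ZT0, 244 and 295 CPM at ZT6, 77.5 and 83.9 CPM at ZT12 and 138, 149 and 149 CPM at ZT18, and its diet libraries ran from 74.5 to 123 CPM. Its diet effect was -1.42 ± 0.14 at ZT6 (log2, SE; adjusted p = 6.66e-08) and did not pass the test at ZT0, ZT12 or ZT18. Canx, the membrane-bound lectin, stood in control at 333, 247 and 348 CPM at ZT0, 512 and 603 CPM at ZT6, 306 and 344 CPM at ZT12 and 340.2, 348 and 371 CPM at ZT18. Under diet Canx stood at 207, 184 and 212 CPM at ZT0, 235, 239 and 243 CPM at ZT6, 234, 185 and 194 CPM at ZT12 and 299, 302 and 323 CPM at ZT18, below control at every time without overlap. Only at ZT6 did both genes pass the test, and the difference between them was not tested. The effect for Canx was -0.62 ± 0.12 at ZT0, -1.22 ± 0.13 at ZT6 and -0.67 ± 0.13 at ZT12 (log2, SE; adjusted p = 0.000414, 4.16e-07 and 0.000584), and -0.20 ± 0.12 at ZT18 (adjusted p = 0.238).

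Hyou1 and Hspa13 completed the chaperones. Hyou1, the large HSP70-like nucleotide exchange factor of BiP, had low levels and a wide spread, 18.8 and 33.9 CPM in control ZT6 against 9.03, 12.2 and 12.99 CPM in diet ZT6, an effect of -1.21 ± 0.26 (log2, SE; adjusted p = 0.000909). That call was lost without replicate 2 of control ZT6 (-0.75, adjusted p = 0.0869). Hspa13, a microsomal HSP70-like ATPase, did not peak at ZT6: its control libraries ran from 45.8 to 61.0 CPM, and the times did not differ past the test. It was lower in every diet library, at 28.8 to 42.6 CPM, an effect over all times of -0.54 ± 0.07 (log2, SE; adjusted p = 1.04e-06).

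The 4 disulfide isomerases were lower under diet over the 4 times, and at ZT6 by the most. Pdia3, which pairs with calnexin and calreticulin to form disulfide bonds in glycoproteins, stood in control at 722, 539 and 784 CPM at ZT0, 1334 and 1599 CPM at ZT6, 566 and 652 CPM at ZT12 and 776, 794 and 773 CPM at ZT18. Under diet Pdia3 stood at 420.1, 457 and 464 CPM at ZT0, 461, 425 and 409 CPM at ZT6, 423, 422 and 452 CPM at ZT12 and 496, 522 and 502 CPM at ZT18. Every diet library of Pdia3 lay below every control library. The effect was -1.76 ± 0.13 at ZT6 (adjusted p = 1.35e-09) and between -0.49 and -0.62 at the other 3 times, called at each, and the interaction had an adjusted p of 0.00177. Without replicate 2 of control ZT12 the call at ZT12 was lost (-0.40, adjusted p = 0.109).

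Pdia6, a thioredoxin-domain isomerase that works with BiP, stood in control at 320.3, 264 and 411 CPM at ZT0, 868 and 1031 CPM at ZT6, 229 and 230.0 CPM at ZT12 and 439, 491 and 502 CPM at ZT18. Its 12 diet libraries ran from 210.2 to 409 CPM with a median of 268 CPM, overlapped control at ZT0 and ZT12, and lay below it at ZT6 and ZT18. The effect was -1.83 ± 0.16 at ZT6 (log2, SE; adjusted p = 1.76e-08) and 0.05 ± 0.16 at ZT12 (adjusted p = 0.854). Pdia6 was also called lower at ZT0 (-0.41 ± 0.14, adjusted p = 0.0365) and at ZT18 (adjusted p = 0.0463). With each of the 22 libraries left out in turn, the ZT0 call held 14 times and the ZT18 call 8 times. Pdia4, another thioredoxin-domain isomerase, stood at 353 and 447 CPM in control ZT6, at 142 to 242 CPM in the other control libraries and at 133 to 283 CPM under diet. It fell at ZT6 by 1.11 ± 0.18 (log2, SE; adjusted p = 4.73e-05). Its effect over all times, -0.27 ± 0.08 (adjusted p = 0.0118), rested on ZT6: without that time it was 0.01 (adjusted p = 0.93). P4hb, the founding isomerase of the family, was lower under diet at each time without overlap, with control libraries at 537 to 943 CPM and diet libraries at 399 to 553 CPM, an effect over all times of -0.52 ± 0.06 (adjusted p = 2.03e-07). It passed the test at ZT0, ZT6 and ZT12 but not at ZT18 (-0.21 ± 0.11, adjusted p = 0.159), and the ZT12 call (adjusted p = 0.0247) was lost without either replicate of control ZT12 or replicate 2 or 3 of diet ZT12. The interaction of P4hb was not called.

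**Figure D2:**
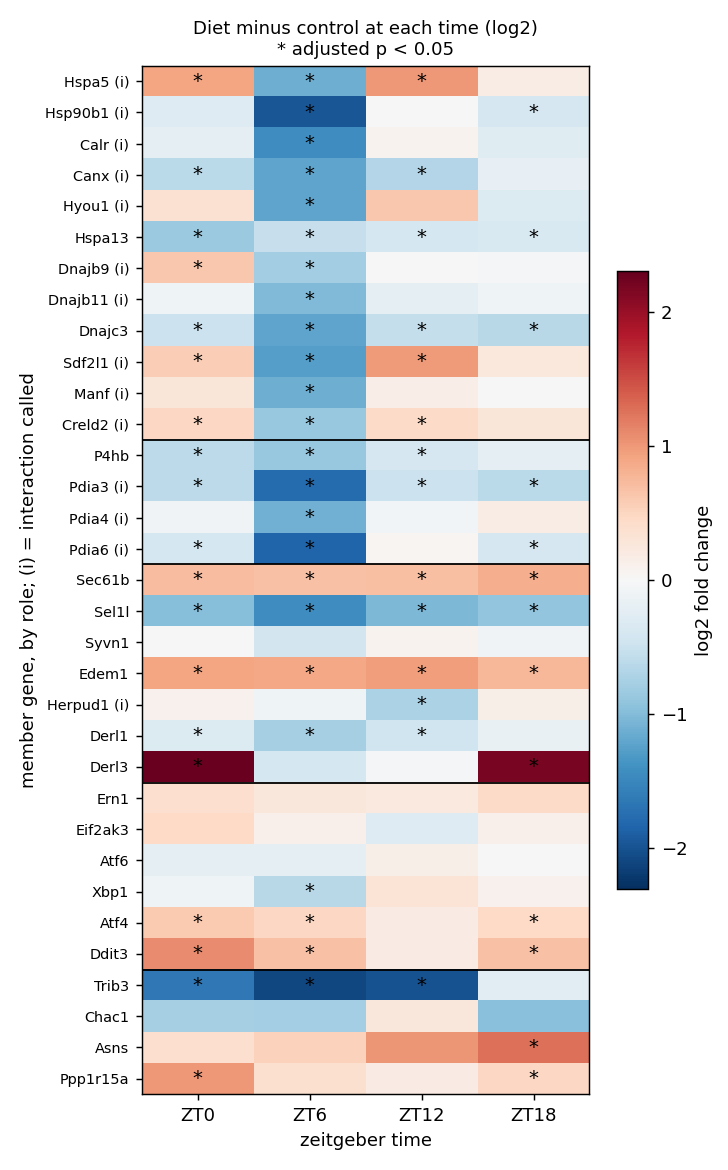
Diet minus control (log2, colour scale) for the 33 members in rows, ordered by role with lines between roles, at each zeitgeber time in columns; an asterisk marks an adjusted p under 0.05 and (i) one of the 14 members whose interaction was called. The 12 chaperones and 4 isomerases are all lower at ZT6, whereas Sec61b and Edem1 are higher and Sel1l lower in all 4 columns.

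At ZT6, 20 of the 33 members were lower and 4 higher under diet, against 15.3% and 14.8% of all genes called lower and higher at that time (30.1% in all). The 20 comprised all 12 chaperones and all 4 isomerases with Sel1l, Derl1, Xbp1 and Trib3, and the 4 were Sec61b, Edem1, Atf4 and Ddit3. The median effect over the 33 was -0.80 (log2), beside 0.08 over all genes. At ZT0, 10 members were higher and 9 lower (background 13.5% and 16.5%, in all 30.0%). At ZT12, 5 were higher and 9 lower (background 14.3% and 15.3%, in all 29.6%), the 9 becoming 5 without replicate 1 of control ZT12. ZT18 had 7 higher and 6 lower (background 15.3% and 15.5%, in all 30.9%), where the 7 became 4 without replicate 3 of control ZT18. The 6 became 3 without replicate 2 or 3 of control ZT18 or replicate 1 or 2 of diet ZT18. Members' median effects were 0.02, 0.07 and -0.01 at these 3 times.

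The time of the highest mean also differed between the diets. In control it was ZT6 for 22 of 33 members, as for 27.2% of all genes tested, and under diet it was ZT18 for 28 of 33, as for 31% of all genes. In control, both ZT6 libraries lay above every other control library for 16 members, against 4.67% of all genes. Besides 9 chaperones and the 4 isomerases these were Sel1l, Derl1 and Xbp1. The 3 control ZT18 libraries lay above the rest of control for Ppp1r15a, 1 of 33 members, against 3.63% of all genes. Under diet, the 3 ZT18 libraries lay above every other diet library for 12 members, against 2.95% of all genes, and the ZT6 libraries did so for 0 members, against 0.678%. For 9 members the 5 control libraries of ZT6 and ZT18 lay above all 5 of ZT0 and ZT12 (1.08% of all genes), namely Hspa5, Hsp90b1, Calr, Hyou1, Dnajb9, Dnajc3, Sdf2l1, Manf and Pdia6. Under diet this held for Calr and Canx (0.522% of all genes). The median distance between a member's highest and lowest time was 0.86 in control (log2), the same as over all genes, and 0.41 under diet, beside 0.67 over all genes.

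Genes of translocation and degradation moved in both directions, and several kept 1 direction at every time. Sec61b, a subunit of the channel through which nascent proteins enter the ER, ranged from 39.0 to 51.3 CPM with a median of 45.6 CPM in control and from 69.6 to 84.6 CPM with a median of 77.5 CPM under diet. Edem1, which extracts misfolded glycoproteins for degradation, ranged from 82.9 to 132 CPM (median 108 CPM) in control and from 165 to 226 CPM (median 190.5 CPM) under diet. Neither gene's groups overlapped. The effect over all times was 0.73 ± 0.05 for Sec61b and 0.88 ± 0.08 for Edem1 (log2, SE; adjusted p = 2.62e-10 and 9.15e-09).

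Sel1l, the adaptor of the HRD1 ubiquitin ligase, moved the opposite way. It stood in control at 257.9 and 234.6 CPM at ZT6 and at 140.1 to 206 CPM at the other times, and under diet its 12 libraries ran from 73.3 to 103 CPM, below every control library. The effect over all times was -1.09 ± 0.06 (log2, SE; adjusted p = 1.47e-12), with -0.91 to -1.42 at the single times. Syvn1, which encodes HRD1 itself, ranged from 51.1 to 102 CPM in control and from 54.6 to 101 CPM under diet, an effect of -0.10 ± 0.09 with a 95% interval of -0.28 to 0.08. The 95% interval of Sel1l ran from -1.20 to -0.97 and did not meet that of Syvn1.

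Derl1, a channel-forming derlin of the retrotranslocation complex, was lower under diet by 0.43 ± 0.06 (log2, SE; adjusted p = 1.73e-06), with control libraries at 157 to 260.2 CPM and diet libraries at 124 to 164 CPM, but not past the test at ZT18 (-0.16 ± 0.11, adjusted p = 0.273). Derl3, a derlin paralog strongly induced by ER stress, had few reads, with 2 to 90 reads in a control library and 25 to 159 reads in a diet library. Its control level was 1.37 ± 1.38 CPM (SD, n = 10) and its diet level 2.76 ± 1.37 CPM (SD, n = 12). The effect of 1.00 ± 0.36 (adjusted p = 0.0243) was lost without replicate 1 of control ZT6, either replicate of control ZT12 or replicate 2 of diet ZT6 (0.85 to 1.02, adjusted p = 0.0505 to 0.0827), and without ZT0 (0.56, adjusted p = 0.35) or ZT18 (0.61, adjusted p = 0.107).

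Herpud1, a membrane protein that recruits the degradation complex, peaked at a time when the chaperones were low. It stood in control at 296, 224 and 309 CPM at ZT0, 357 and 331 CPM at ZT6, 492 and 452 CPM at ZT12 and 319.5, 377 and 343 CPM at ZT18. Under diet it stood at 269, 299.9 and 316 CPM at ZT0, 305, 325 and 333 CPM at ZT6, 315, 275 and 269 CPM at ZT12 and 361, 352 and 433 CPM at ZT18. Only at ZT12 did the groups not overlap, with an effect of -0.72 ± 0.13 (log2, SE; adjusted p = 0.000261). The interaction of Herpud1 had an adjusted p of 0.0496, and was lost when any library was left out other than replicate 2 or 3 of control ZT0 or replicate 1 of diet ZT12.

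**Figure D3:**
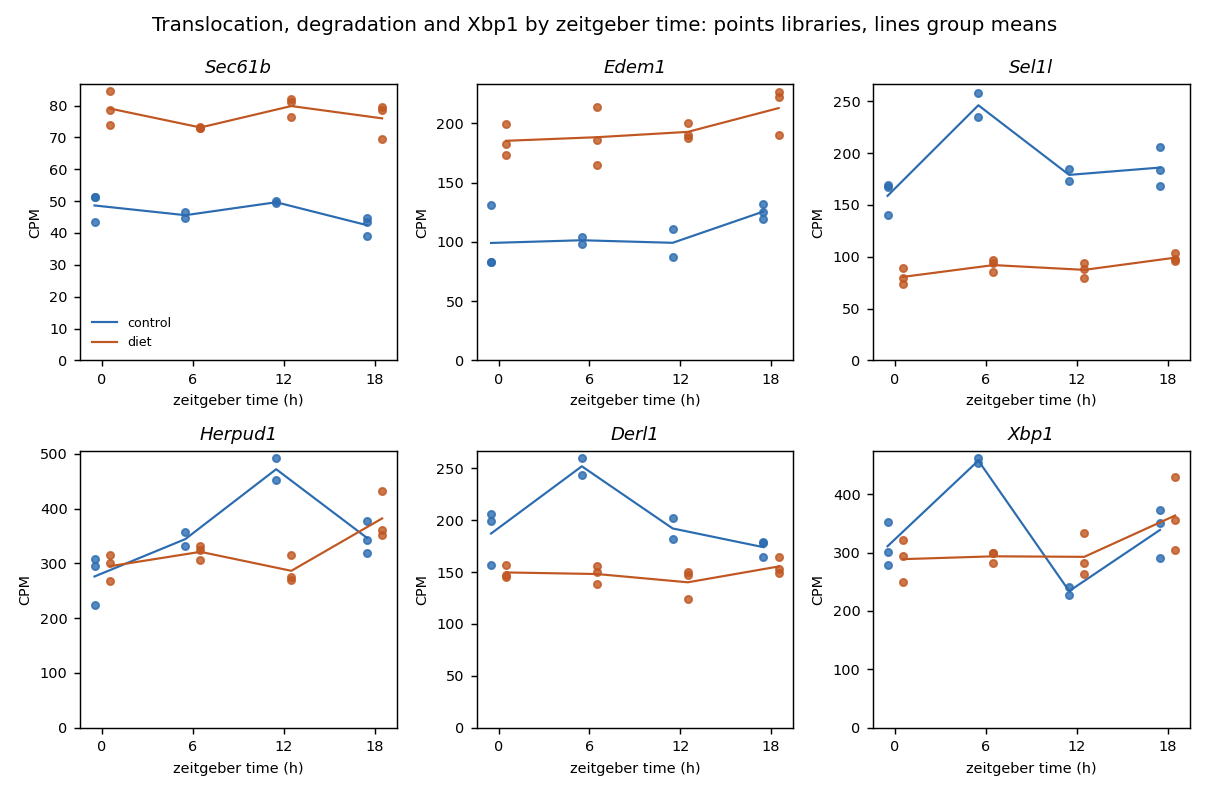
Expression in CPM (vertical axis, from 0) against zeitgeber time in hours for Sec61b, Edem1, Sel1l, Herpud1, Derl1 and Xbp1, with 1 point per library and lines through the group means, control in blue and diet in orange. Sec61b and Edem1 lie higher and Sel1l lower under diet in every library, and Herpud1 has its control maximum at ZT12, at 492 and 452 CPM.

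The sensors themselves differed little. Ern1, which encodes IRE1, ranged from 5.95 to 14.6 CPM in control and from 8.89 to 18.5 CPM under diet, Eif2ak3, which encodes PERK, from 9.81 to 22.5 and from 8.84 to 22.7 CPM, and Atf6 from 46.1 to 68.9 and from 44.6 to 68.3 CPM. Their effects over all times were 0.33 (95% interval 0.03 to 0.63, adjusted p = 0.0818), 0.10 (-0.17 to 0.36) and -0.08 (-0.24 to 0.09) on the log2 scale, and no single time passed the test for any of the sensors. Xbp1, whose RNA is spliced by IRE1 into the form that encodes the active factor, was counted as a gene, so spliced and unspliced forms are not distinguished. It stood in control at 301, 278 and 353 CPM at ZT0, 463 and 453 CPM at ZT6, 241 and 227 CPM at ZT12 and 291, 374 and 352 CPM at ZT18, and under diet at 250.4 to 429.9 CPM. The Xbp1 libraries of ZT6 did not overlap, with an effect of -0.64 ± 0.15 (log2, SE; adjusted p = 0.00212), while over all times it was -0.08 ± 0.07 (adjusted p = 0.371).

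Atf4 and Ddit3, the transcription factors of the PERK branch, were higher under diet over the 4 times, though neither passed the test at ZT12. Atf4 ranged from 146 to 175 CPM (median 164 CPM) in control and from 181 to 249.7 CPM (median 225 CPM) under diet, and no diet library overlapped control. Its effect over all times was 0.44 ± 0.05 (log2, SE; adjusted p = 1.52e-07), and at ZT12 it was 0.19 ± 0.10 (adjusted p = 0.167). Ddit3, which encodes the pro-apoptotic factor CHOP, stood in control at 24.8, 25.5 and 14.8 CPM at ZT0, 31.3 and 22.7 CPM at ZT6, 31.3 and 33.3 CPM at ZT12 and 36.1, 37.6 and 23.3 CPM at ZT18. Under diet it stood at 41.3, 45.4 and 52.1 CPM, 35.8, 52.2 and 40.4 CPM, 38.5, 33.6 and 38.8 CPM, and 51.6, 53.1 and 50.5 CPM at the same times. The groups of Ddit3 did not overlap at any single time, and the effect over all times was 0.66 ± 0.11 (adjusted p = 3.19e-05). At ZT12, where the nearest libraries stood at 33.3 and 33.6 CPM, the effect was 0.19 ± 0.23 (adjusted p = 0.584). The ZT6 call of Ddit3 (adjusted p = 0.0351) was lost without replicate 2 of control ZT6 or of diet ZT6, and the ZT18 call (adjusted p = 0.0144) without replicate 3 of control ZT18. Ddit3 is overlapped by Mars on the other strand. The strand setting of the counting is not given in the sources used here, so reads in the stretch they share cannot be told apart.

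The 4 targets of the integrated stress response, genes that ATF4 is known to activate, did not move together. Ppp1r15a, which encodes GADD34, the subunit that lets eIF2 be dephosphorylated, stood in control at 149, 230.5 and 157 CPM at ZT0, 220.2 and 319.6 CPM at ZT6, 238 and 288 CPM at ZT12 and 363, 362 and 357 CPM at ZT18. Under diet Ppp1r15a stood at 348, 349 and 369.6 CPM at ZT0, 328, 376 and 344 CPM at ZT6, 284, 345 and 269 CPM at ZT12 and 521, 517 and 472 CPM at ZT18. Diet lay above control at each time but ZT12, where the groups overlapped, and ZT18 was the highest time in both diets. The effect over all times was 0.51 ± 0.08 (log2, SE; adjusted p = 1.86e-05). Of the single times ZT0 and ZT18 passed the test (0.99 ± 0.15 and 0.48 ± 0.15, adjusted p = 3.22e-05 and 0.0193) and ZT6 and ZT12 did not (0.37 ± 0.17 and 0.19 ± 0.17, adjusted p = 0.112 and 0.459). The ZT18 call was lost without replicate 3 of control ZT18 or replicate 1 or 2 of diet ZT18. Ppp1r15a is overlapped by Tulp2 on the other strand. Asns, which makes asparagine, ranged from 2.46 to 7.88 CPM in control and from 4.74 to 12.2 CPM under diet, an effect of 0.80 ± 0.20 (adjusted p = 0.00175). At single times Asns passed the test at ZT18 alone (1.27 ± 0.37, adjusted p = 0.0124).

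Trib3, a pseudokinase induced by ATF4 and CHOP, was lower under diet. It stood in control at 10.6, 6.51 and 14.1 CPM at ZT0, 16.4 and 12.0 CPM at ZT6, 12.4 and 9.06 CPM at ZT12 and 8.95, 6.15 and 5.95 CPM at ZT18. Under diet it stood at 5.62, 1.77 and 2.49 CPM at ZT0, 4.18, 3.60 and 2.17 CPM at ZT6, 3.98, 2.39 and 1.66 CPM at ZT12 and 6.18, 4.45 and 6.95 CPM at ZT18. At ZT18 alone the groups overlapped. The effect over all times was -1.50 ± 0.22 (log2, SE; adjusted p = 5.69e-06), and it was -0.26 ± 0.41 at ZT18 (adjusted p = 0.681). Chac1, a glutathione-degrading enzyme, ranged from 0.772 to 4.79 CPM in control and from 0.226 to 4.54 CPM under diet, and its effect of -0.56 had a 95% interval of -1.30 to 0.18.

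**Figure D4:**
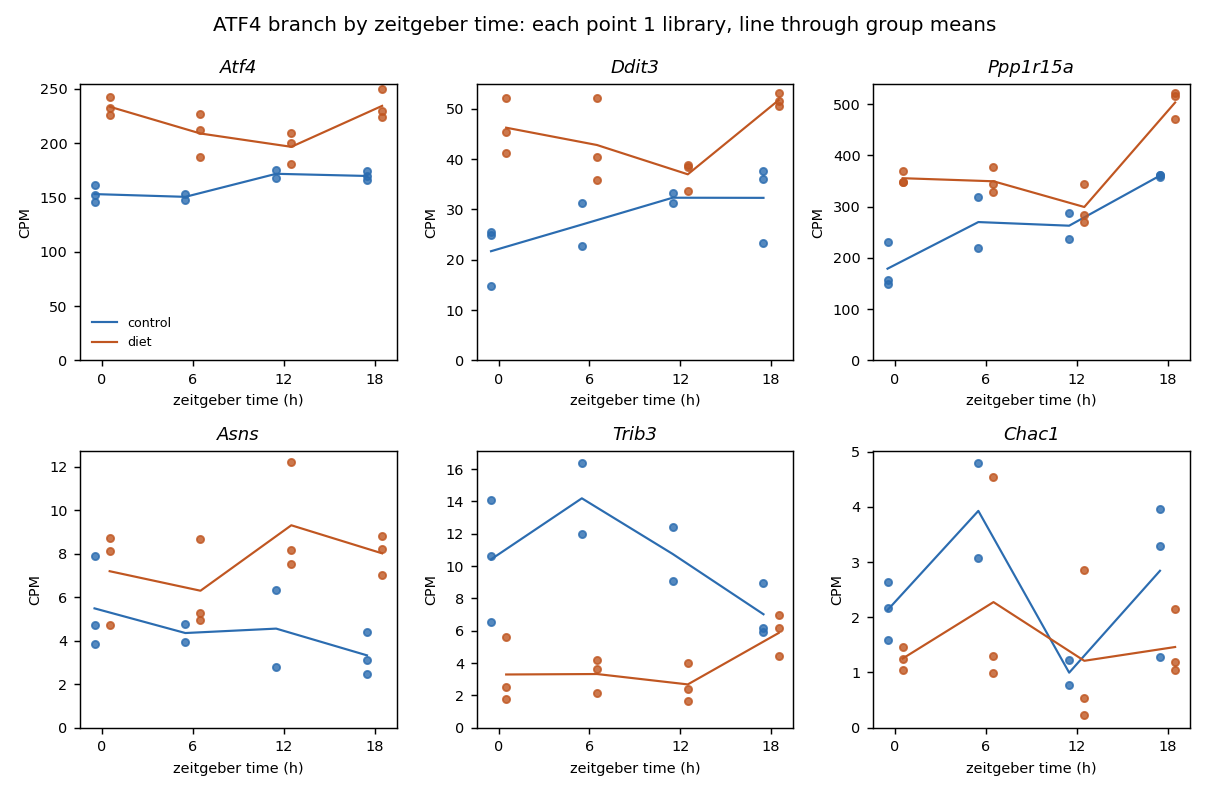
Expression in CPM (vertical axis, from 0) against zeitgeber time in hours for Atf4, Ddit3, Ppp1r15a, Asns, Trib3 and Chac1, with 1 point per library and lines through the group means, control in blue and diet in orange. The diet points of Atf4 and Ddit3 lie above the control points at each time, though at ZT12 neither difference passed the test (adjusted p = 0.167 and 0.584), Trib3 lies lower at ZT0, ZT6 and ZT12, and the diets overlap for Chac1.

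With the 4 times at equal weight, 21 of the 33 members differed between the diets, 8 higher and 13 lower under CDA-HFD, where 52.4% of all genes were called (27.5% higher and 24.9% lower). The share among the members is thus near the background in this comparison. Higher were Hspa5, Sec61b, Edem1, Derl3, Atf4, Ddit3, Asns and Ppp1r15a, and lower were Hsp90b1, Calr, Canx, Hspa13, Dnajb11, Dnajc3, P4hb, Pdia3, Pdia4, Pdia6, Sel1l, Derl1 and Trib3. The median effect was -0.14 (log2), beside 0.08 over all genes. Every diet library lay above every control library for Sec61b, Edem1 and Atf4 (7.35% of all genes), and below for Hspa13, Pdia3 and Sel1l (9.78% of all genes). For genes whose effect changes sign over the day the mean over times depends on the times sampled. Hspa5, at 0.24 ± 0.05, was no longer called without ZT0 (0.00, adjusted p = 0.987) or without ZT12 (0.02, adjusted p = 0.788). Leaving out ZT6 ended the calls of Calr and Dnajb11 (both -0.14, adjusted p = 0.154 and 0.132), while Sdf2l1 and Creld2 then passed as higher (0.59 and 0.40, adjusted p = 5.19e-05 and 0.00072).

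**Figure D5:**
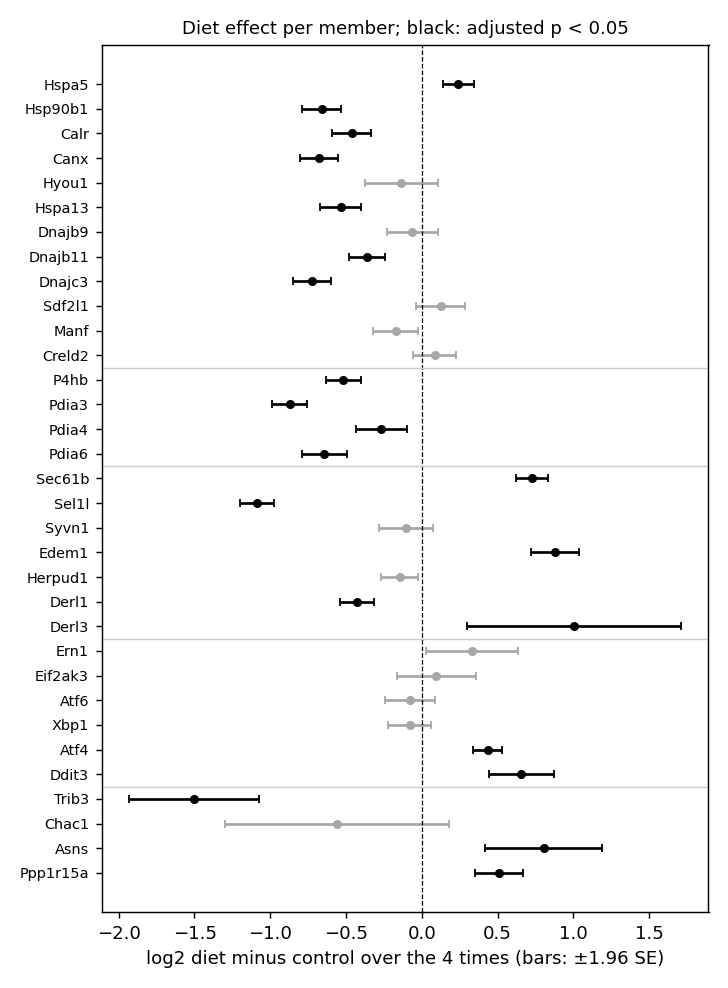
Diet minus control over the 4 times (log2, horizontal axis; bars are 95% intervals) for the 33 members, ordered by role, black where the adjusted p was under 0.05 and grey otherwise. Sel1l at -1.09 and Trib3 at -1.50 are lowest, and Sec61b, Edem1, Asns and Derl3 lie at 0.73 to 1.00, with the widest bars at Derl3 and Chac1.

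Per kilobase of exon, which allows genes to be compared with each other, the most abundant members in control were Pdia3, at a mean of 272 CPM per kb, P4hb, at 236, Hspa5, at 214, Hsp90b1, at 189, Herpud1, at 150.1, and Pdia6, at 128. Under diet they were Hspa5, at 223 CPM per kb, P4hb, at 166.5, Pdia3, at 145, Herpud1, at 138, Ppp1r15a, at 128, and Hsp90b1, at 109. The order depended on the time: in control P4hb came first at ZT0 and ZT12, at 225 and 218.5 CPM per kb, Pdia3 at ZT6, at 467 over 2 libraries, and Hspa5 at ZT18, at 261 beside 249 for Pdia3. Hspa5 came first at each of the 4 diet times. Derl3 was the least abundant in control, at 0.686 CPM per kb. Of the 33 genes 14 are overlapped by another annotated gene, 12 of them on the other strand, and reads in the shared stretches cannot be assigned without the strand setting.

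Calls were counted for the 9 members that held the ER stress response element beside the other 19 with a promoter. At ZT6 the diets differed for 7 of the 9 and 13 of the 19 (background 30.1%). Over the times in control 7 of the 9 and 10 of the 19 were called (background 5.74%), and in the interaction 6 of the 9 and 6 of the 19 (background 0.959%). The sets also differ in role: 7 of the 9 are chaperones or isomerases, and all sensors and stress response targets searched are among the 19. Those 7 were all called at ZT6 and over the times in control. So were Dnajb9, Dnajb11, Sdf2l1, P4hb, Pdia3 and Pdia4, the chaperones and isomerases among the 19. In the interaction all were called but Dnajc3 of the 7 and P4hb of the others. Herpud1, whose window ends within a possible element, was counted among the 19. The differences in share between the 9 and the 19 were not tested. Syvn1 and Derl3 held the element and were called in none of these 3 comparisons.

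Other genes of the same pathways came from lists chosen with results of these data known. By edgeR the interaction, called for 0.959% of all genes, was called for 0 of 25 other folding factors, 0 of 20 other degradation genes, 0 of 22 other translocation and glycosylation genes, 0 of 20 other sensors and regulators and 1 of 33 other integrated stress response targets. At an unadjusted p under 0.05 these counts were 10, 2, 7, 4 and 10, and DESeq2 called 5, 1, 4, 2 and 4. Over all times, where 27.5% of all genes were called higher and 24.9% lower (52.4% in all, median 0.08), 4 of the 25 folding factors were higher and 13 lower (median -0.18), among them Fkbp7, at -3.03 ± 0.13, and Fkbp14, at -3.43 ± 0.15, both prolyl isomerases, while Serp1, which stabilises proteins at the translocon, was higher by 1.31 ± 0.06 (log2, SE; adjusted p = 3.89e-14, 1.14e-13 and 3.98e-14). Of the 20 degradation genes 7 were higher and 8 lower (median -0.08), with Selenos at 0.57 ± 0.05, Ube2j1 at 0.50 ± 0.05 and Erlec1 at -0.88 ± 0.14. Of the 22 translocation and glycosylation genes 4 were higher and 10 lower (median -0.12), with Sec11c, a signal peptidase subunit, at 1.22 ± 0.07 and Rpn1, an oligosaccharyltransferase subunit, at -1.41 ± 0.08, and Sec62 at -0.85 ± 0.06. Of the 20 sensors and regulators 4 were higher and 9 lower (median -0.25), with the transcription factor Creb3l2 at -1.97 ± 0.08, Map3k5 at 1.44 ± 0.12 and Eif2s1 at 0.59 ± 0.06.

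The other targets of the integrated stress response had 19 of 33 higher and 8 lower over all times (median 0.66), against 27.5% and 24.9% of all genes (median 0.08). Psat1, an enzyme of serine synthesis, rose from 10.9 ± 5.06 to 40.3 ± 7.15 CPM (SD, n = 10 and 12), an effect of 2.08 ± 0.14 (log2, SE), while the aminoacyl-tRNA synthetase Wars and the translation inhibitor Eif4ebp1 fell by 1.26 ± 0.07 and 1.32 ± 0.09. The cytosolic heat shock chaperones, which belong to another stress response, had 14 of 21 genes higher and 2 lower (median 0.40) against the same background, with Hspa4 at 0.67 ± 0.05, Hspb1 at -1.57 ± 0.15 and Bag3 at -0.94 ± 0.09. Their times differed in control for 14 of 21 genes (background 5.74%) and their interaction was called for 6 of 21 (background 0.959%).

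Other signals moved with the same groups. Immediate early genes rise when cells are handled or stimulated, and 13 of 15 were called over the times in control (background 5.74%). Their sum in control was 2487 to 5685 CPM at ZT0 and 7097 to 8858 CPM at ZT6. It was 5598 to 5974 CPM at control ZT12 and 10893 to 11602 CPM at control ZT18. Under diet the sum was 8301 to 16581 CPM. It was highest at ZT18 in both diets, and in control its sums at ZT6 and ZT18 all lay above those at ZT0 and ZT12. That order in control also held for 9 of the 33 members (1.08% of all genes). Of the 33 members 4 had their highest control mean at ZT18 and 22 at ZT6, against 25.4% and 27.2% of all genes. Under diet 28 had their highest mean at ZT18, against 31% of all genes. Mitochondrially encoded genes summed to 27695 to 46245 CPM at diet ZT18, when 28 of the members had their highest diet mean, against 9822 to 28377 CPM at the other diet times, and 4 of the 13 genes of that list were at 0 in every library (mt-Nd4l, mt-Co2, mt-Co3 and mt-Atp8). The most abundant gene, CT010467.1, took 9.98 to 13.8% of the counts at ZT18 and 15.6 to 21.7% at the other times. The 12 endothelial markers summed to 35619 and 37098 CPM at control ZT6, against 19078 to 33703 CPM at the other control times. All 12 were lower under diet over all times, against 24.9% of all genes. Their interaction was called for 0 of 12 by edgeR (background 0.959%), 2 by DESeq2 and 3 at an unadjusted p under 0.05. Plasma cells are rich in ER chaperones. Their markers summed to 583 to 1196 CPM in control (749 and 923 CPM at ZT6) and 2240 to 4501 CPM under diet. Over all times 10 of these 12 markers were higher, against 27.5% of all genes. Macrophage markers summed to 413 to 2224 CPM in control, where replicate 2 of ZT6 was highest, and to 1722 to 3339 CPM under diet. Over the times in control 9 of these 12 markers were called (background 5.74%). The sums for hepatocytes (245 to 447 against 693 to 1604 CPM), dendritic cells and neutrophils (207 to 892 against 1611 to 2328 CPM), T, NK and B cells (341 to 1322 against 2041 to 4958 CPM) and cholangiocytes (394 to 1023 against 1431 to 5362 CPM) were each higher under diet, without overlap. The stellate list had 5 of 12 lower and 1 higher under diet over all times, against 24.9% and 27.5% of all genes. Its called share of 50% is near the 52.4% of all genes. Of the dendritic cell and neutrophil markers S100a8 was at 0 in control ZT0 and Cxcr2 in control ZT18. The part of these shifts in the members' results was not tested.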

How the data were processed

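The 22 mouse liver libraries were made from RNA taken with a Promega kit and were run on an Illumina HiSeq instrument, per the labels' protocols. The submitters' processing notes name STAR 2.7.9a, HTSeq and DESeq2 as tools and GRCm38 (mm10) as the genome. The annotation and whether counting used strand were not given in the sources used here. The deposited table holds whole-number counts per gene symbol as the authors made them; their normalised values were not used.

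Groups came from the sample titles. Tests ran in R 4.3.3 on edgeR 4.0.16 with limma 3.58.1: filterByExpr with 8 groups, TMM scaling and 1 quasi-likelihood model with a mean per group, so that groups with 2 libraries share the spread of all. Contrasts were diet minus control over the 4 times and at each time, and F tests over the times in control, under diet and for the interaction. P-values were adjusted over 22409 genes (Benjamini-Hochberg), and a gene is called at an adjusted p under 0.05. SE is the log2 fold change divided by the square root of F, and 95% intervals are 1.96 SE to each side. The factor 1.96 is that of a normal distribution, so with this few libraries the intervals are somewhat narrower than the F test implies. CPM used TMM-scaled library sizes, and log2 CPM a prior count of 2. The text names all 33 members and, of each other pathway list, the 3 called genes with the smallest p over all times at a mean log2 CPM of at least 2. The members and lists were chosen with earlier results of these data known. The model was also run on counts simulated from its own estimates of spread, with few genes changed. Here 52.4% of all genes were called between the diets, so that run does not show how the model does on these data. Replicate pairs differed by far more than sampling noise, so each library counts once.

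Promoter windows came from RefSeq (GRCm38.p6) and exon lengths from GENCODE M21. Alternatives were DESeq2 1.42.0, RLE or library-size scaling, a filter at a mean CPM of 5 or none, a replicate block, only the groups compared, 24 h cosine terms, each library left out, without the 2 control libraries that stand apart, and without each time. For the F tests, leaving out times was added after seeing the data.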

Additional observations from a re-analysis of the deposited data

Results flagged for a closer look

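The diet effect differed between the 4 times for 14 members, by edgeR's quasi-likelihood test of the diet by time interaction adjusted over all genes. The adjusted p was 5.74e-07 for Hspa5, 0.000106 for Hsp90b1, 0.000462 for Sdf2l1, 0.000851 for Pdia6, 0.00172 for Calr, 0.00177 for Pdia3, 0.00569 for Creld2 and 0.00794 for Manf. It was 0.0235 for Dnajb11, 0.0291 for Dnajb9, 0.0357 for Pdia4, 0.0363 for Canx, 0.0399 for Hyou1 and 0.0496 for Herpud1. For 13 of the 14 the diet effect was lowest at ZT6, and for Herpud1 it was lowest at ZT12. No group held enough libraries for a test of outlying libraries within it, so single libraries were checked only by leaving each out in turn.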

How the results depend on the processing

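With 1 library left out at a time, the members called over all times numbered 7 to 9 higher and 13 to 15 lower, at ZT0 8 to 11 and 6 to 11, at ZT6 3 to 5 and 19 to 20, at ZT12 4 to 5 and 5 to 9, and at ZT18 4 to 7 and 3 to 7. Over times in control they numbered 15 to 21, under diet 1 to 8 and in the interaction 8 to 19. With library size as the only scaling, members were 9 higher and 5 lower at ZT12, 3 lower at ZT18 and 9 over times under diet, and the share of all calls that were higher over all times rose from 52.4% to 62.6% as the median gene moved from 0.08 to 0.25 (log2). A mean CPM of at least 5 gave 9 higher at ZT12. Over times under diet no filter gave 8 members, the 4 diet groups alone 7, leaving out the 2 control libraries that stand apart 8, DESeq2 9, 24 h cosine terms 1, and leaving out ZT6 or ZT18 1 or 0. Over times in control the 4 groups alone gave 11, cosine terms, which allow 1 peak and 1 trough, 1, and leaving out ZT6 9. The interaction had 1 member without ZT6 and 8 without ZT18. Counts over all genes kept within 1.5 times for each diet effect, except the genes higher at ZT12, which ran from 2114 to 3384 with 1 library left out, against 3205 with all; in the interaction they ran from 34 to 2085 (main 215), in control from 208 to 3078 (main 1287) and under diet from 24 to 1500 (main 241), so backgrounds for these tests move with the processing. The 1 reversal was Pdia4 over all times without ZT6, 0.014 (adjusted p = 0.93). The 71 same-numbered pairs of libraries had deviations from their group means correlated at -0.143 to 0.138 (mean -0.0048). For the 140 other-numbered pairs the range was -0.138 to 0.178 (mean 0.0024). These values gave no sign that the numbers pair the samples, but groups this small cannot exclude it. With the replicate block, members called were 8 higher and 15 lower over all times, 20 over times in control, 4 under diet and 13 in the interaction. With 2 libraries at control ZT6 and ZT12 and few reads of Derl3, Chac1, Trib3 and Asns, small effects were not detectable.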
